A study of Mus musculus with 12 samples.

Results

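The comparison described here sets 6 stress-exposed ventral hippocampi with a high level of Trh, the gene for the precursor of thyrotropin-releasing hormone, beside 3 stress-exposed hippocampi with a low level. The libraries were selected on Trh itself. Of the 9 stress-exposed libraries among the 12 of the series, those with 5 CPM or more (CPM, a gene's counts scaled to its library total) were called Trh-high, and those under 5 CPM were called Trh-low. Each stress-exposed group gave 2 Trh-high libraries and 1 Trh-low library, and the 3 libraries of unstressed mice were not divided.

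All mice were wild-type male C57BL/6J, naive and 8 weeks old before the experiment, and each library came from 1 numbered mouse. The first group (SS) was restrained for 2 hours a day on 14 days, was classed as stress-susceptible from its behaviour and stayed sedentary. Both other stress-exposed groups were restrained in the same way, were also stress-susceptible, and then had a running wheel, for 14 days by the sample titles and for 4 weeks by the protocol text. They were classed by behaviour as effective responders to running (SES) or ineffective responders (SER). The unstressed mice (C) had no treatment. With 3 mice per group, the comparison of Trh-high with Trh-low libraries rests on 1 Trh-low mouse in each group. No label gives a reason why 1 mouse of each group should differ from the others, so the p-values describe how other genes varied together with Trh among these mice and not the effect of a treatment.

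Thyrotropin-releasing hormone is a tripeptide amide cut out of a larger precursor by the prohormone convertases, trimmed by carboxypeptidase E, closed at its first residue by glutaminyl cyclase and amidated by the enzyme Pam. In the hypothalamus it drives release of thyroid-stimulating hormone from the pituitary, and elsewhere in the brain it acts as a neuromodulator through Gq-coupled receptors, of which Trhr is the main one in mice. In the hippocampus of rats, Trh mRNA in dentate granule cells is known to rise after seizures.

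Trh lies on chromosome 6 (mm10, 92242061 to 92244650, minus strand). The 150 bases before its RefSeq transcription start are shown because this promoter stands before the gene that divided the libraries. They are given 5′ to 3′ on the gene's strand, from RefSeq (GRCm38.p6), at chr6:92244651-92244800. The capitals mark a TATAA match and a TGACCTCA match, an 8-letter word that differs by 1 letter from the cyclic AMP response element TGACGTCA and whose reverse strand holds the nuclear receptor word AGGTCA.

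Trh promoter: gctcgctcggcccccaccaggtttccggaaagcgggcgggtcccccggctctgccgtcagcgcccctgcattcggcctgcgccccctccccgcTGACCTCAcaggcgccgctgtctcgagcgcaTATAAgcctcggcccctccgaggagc

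TGACCTCA was found once in the 250 bases before the start, from 57 to 50 bases upstream, and on either strand 636 of 32851 RefSeq promoters of the same length held it (1.94%). TATAA was found once, from 26 to 22 bases upstream, against 22.8% of promoters. The word TGACGTCA was not found in this window, and 1.55% of promoters held it. These matches are letters in a sequence, and binding was not measured.

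Trh read as follows in the libraries that it divided. In SS, mice 19 and 21 had 23.4 and 23.5 CPM and mouse 18 had 1.27. In SES, mice 9 and 12 had 12.4 and 13.8 CPM and mouse 10 had 0.872. In SER, mice 6 and 19 had 12.7 and 10.5 CPM and mouse 20 had 0.644. The 2 classes were thus far apart: the library just inside the threshold had 10.5 CPM and the one just outside it had 1.27 CPM, and every Trh-low library lay in the range of the unstressed mice or slightly above it, since C mice 2, 8 and 12 had 1.04, 0.855 and 0.0849 CPM. The counts behind these values were 126 to 287 in Trh-high libraries, 6 to 13 in Trh-low libraries and 11, 12 and 1 in C, so the exact 95% intervals for counting error of SER mouse 20 (0.236 to 1.40 CPM) and SS mouse 18 (0.679 to 2.18 CPM) overlap.

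Trh averaged 16.1 ± 5.80 CPM in Trh-high libraries (SD, n = 6), 0.930 ± 0.319 in Trh-low libraries (SD, n = 3) and 0.659 ± 0.505 in C (SD, n = 3). The mean of the Trh-high libraries over the Trh-low one was 18.4 in SS, 15.1 in SES and 18.1 in SER. These ratios are a description of the values that chose the libraries and carry no test. The same 9 of 9 libraries were classed alike when CPM was scaled with TMM factors.

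**Figure D1:**
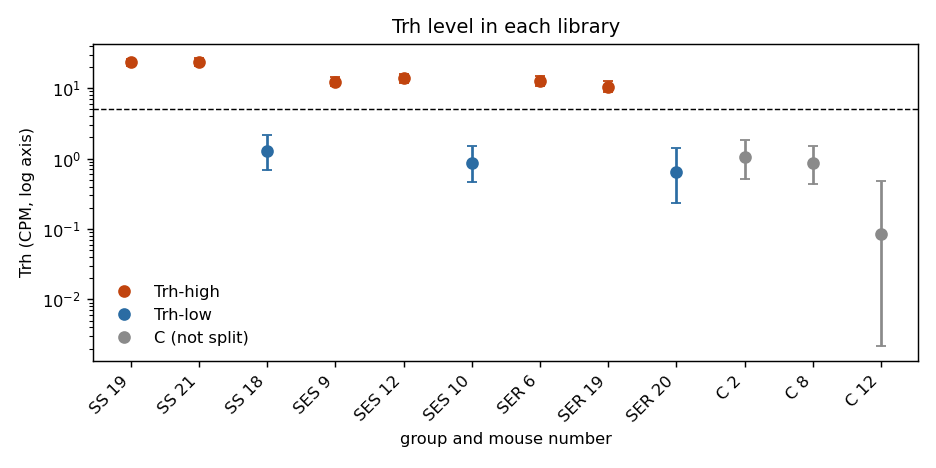
Trh in CPM on a log axis for each of the 12 libraries, ordered by group and labelled with the mouse number; bars are exact 95% intervals for counting error and the dashed line is the threshold of 5 CPM. The 6 Trh-high libraries sit between 10.5 and 23.5 CPM, while the 3 Trh-low libraries sit between 0.644 and 1.27 CPM, beside the C libraries.

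The libraries held 9323607 to 15707516 counts each. Granule cell and pyramidal markers of the hippocampus were present in both classes, with Prox1 at 29.6 to 51.8 CPM in Trh-high and 33.3 to 46.4 CPM in Trh-low libraries, and Wfs1 at 61.7 to 93.7 CPM in Trh-high and 39.3 to 94.0 CPM in Trh-low libraries. The RNA is from a block of tissue, so that fewer cells of a type and less RNA per cell cannot be told apart in any result here. Within SS, mouse 18, which is Trh-low, differed widely from both Trh-high mice. Its transthyretin gene Ttr, the defining gene of the choroid plexus, had 4939 CPM against 5.95 and 12.4 CPM in SS mice 19 and 21. Its nuclear RNA Malat1 had 490 CPM against 3906 and 5425 CPM there. In the other groups Ttr ran from 2.78 to 4707 CPM and Malat1 from 262 to 1960 CPM. For Malat1 the Trh-high SS mice were thus the outlying ones.

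Across all genes, edgeR's quasi-likelihood test with group as a block called no gene other than Trh. Of 14690 genes, 0 (0%) were higher and 0 (0%) lower in Trh-high libraries at an adjusted p under 0.05, and the smallest adjusted p was 0.445. At an unadjusted p under 0.05, 371 genes (2.53%) were higher and 385 (2.62%) lower, together 756 genes or 5.15%. In 447 genes (3.04%) both Trh-high libraries stood above the Trh-low one in each of the 3 groups, and in 324 genes (2.21%) both stood below it. DESeq2 called 7 genes higher and 4 lower, and limma-voom called 0 in each direction. Without the filter on low counts edgeR called 3 genes higher, and without SER mouse 20, which leaves SER with no Trh-low library, it called 8 higher and 5 lower. The log2 differences (Trh-high minus Trh-low) ran from −4.10 in Ttr to 6.66 in Amd1, the S-adenosylmethionine decarboxylase gene, which has a near-identical copy and was picked out after its value was seen. Neither passed (adjusted p = 0.901 for both).

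**Figure D2:**
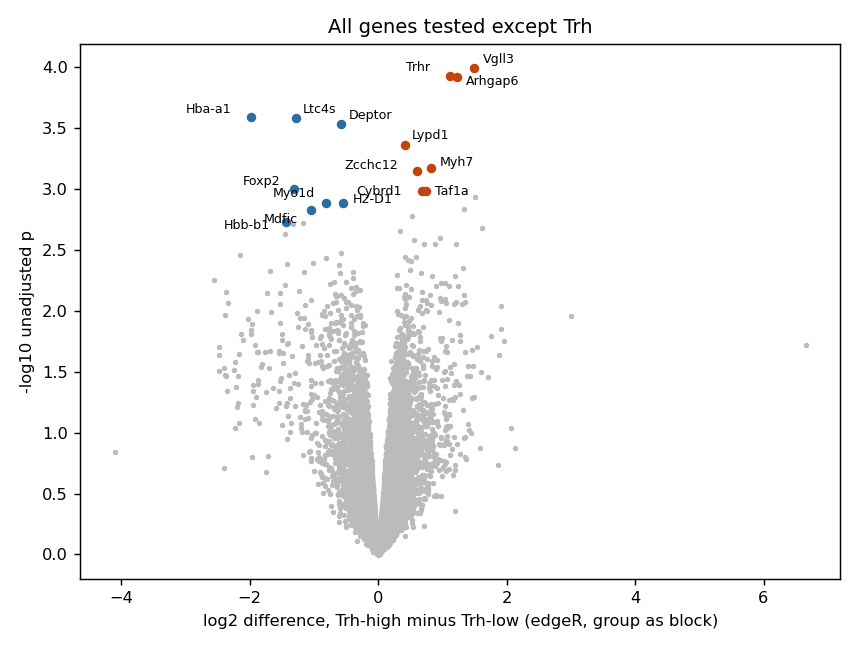
Log2 difference, Trh-high minus Trh-low, against −log10 of the unadjusted p of edgeR's test for 14690 genes without Trh, each point a gene. The 8 higher genes (orange) and the 8 lower genes (blue) with the smallest p are named; none passed, with adjusted p from 0.445 to 0.901.

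The genes named first are the 8 higher and 8 lower ones with the smallest p, which were chosen by this same contrast, so that their separation within each group is a description. The 3 with the smallest p included Trhr, the receptor of the hormone itself (chromosome 15, 44195924 to 44235912). Trhr had 17.8 and 20.3 CPM in Trh-high SS mice 19 and 21, against 8.92 CPM in Trh-low SS mouse 18. It had 21.4 and 16.3 CPM in Trh-high SES mice 9 and 12, against 6.17 CPM in Trh-low SES mouse 10. In Trh-high SER mice 6 and 19 it had 11.9 and 15.9 CPM, against 8.47 CPM in Trh-low SER mouse 20. All 6 Trh-high values lay above all 3 Trh-low values, and the log2 difference was 1.11 ± 0.19 (SE, edgeR adjusted p = 0.445). DESeq2 called Trhr with an adjusted p of 0.00108, the smallest of its calls other than Trh, whereas the adjusted p in the alternatives ranged up to 1. The unstressed mice, with 8.10, 14.5 and 17.2 CPM, covered both classes, although their Trh was as low as in the Trh-low libraries.

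Vgll3, a vestigial-like cofactor of TEAD transcription factors (chromosome 16, 65815189 to 65866368), was low in number but apart in each group. It had 8.96 and 9.20 CPM in Trh-high SS mice against 2.65 CPM in the Trh-low one, 5.92 and 5.38 CPM against 1.21 CPM in SES, and 8.10 and 7.79 CPM against 4.61 CPM in SER. The log2 difference was 1.49 ± 0.25 (SE, adjusted p = 0.445), and all 3 C mice, at 2.73, 2.99 and 3.74 CPM, stood below the lowest Trh-high mouse. Vgll3 counts were 18 to 110 per library, so counting error is a larger part of its spread than for a gene such as Lypd1 with 729 to 1689 counts.

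Arhgap6, which encodes a GTPase-activating protein (chromosome X, 168795094 to 169304440), had 15.8 and 18.6 CPM in Trh-high SS mice against 4.71 CPM in the Trh-low one. It had 12.2 and 8.15 CPM against 4.63 CPM in SES and 8.57 and 7.62 CPM against 4.72 CPM in SER. The 3 Trh-low values lay within 0.1 CPM of each other, the Trh-high ones were spread from 7.62 to 18.6 CPM, and the log2 difference was 1.23 ± 0.21 (SE, adjusted p = 0.445). In C the values were 5.94, 8.62 and 4.42 CPM.

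The other higher genes differed less. Lypd1, a membrane-anchored Ly6 protein that binds nicotinic acetylcholine receptors, ran from 101.5 to 135 CPM with a median of 105 in Trh-high libraries, against 78.2, 81.4 and 85.5 CPM in Trh-low libraries (log2 difference 0.41 ± 0.08, adjusted p = 0.797). The classes did not overlap, and C stood at 63.9 to 86.4 CPM, with the Trh-low libraries. The remaining 4 were Myh7, a slow muscle myosin heavy chain (0.83 ± 0.18), Zcchc12, a co-activator in bone morphogenetic protein signalling (0.60 ± 0.13), Cybrd1, a ferric reductase (0.68 ± 0.15), and Taf1a, a subunit of the RNA polymerase I selectivity factor (0.74 ± 0.17), each with an adjusted p of 0.901. For Zcchc12 the C mice (58.9 to 71.6 CPM) overlapped the Trh-high libraries (45.9 to 77.3 CPM) and stood above the Trh-low ones (38.4 to 43.1 CPM).

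Among the lower genes, Deptor, an inhibitor protein bound to the kinase mTOR, ran from 16.0 to 22.0 CPM with a median of 17.9 in Trh-high libraries and had 22.9, 23.3 and 36.0 CPM in Trh-low libraries (log2 difference −0.58 ± 0.11, adjusted p = 0.618). The C mice had 24.2, 32.2 and 45.4 CPM, above every Trh-high library. Foxp2, a forkhead transcription factor (chromosome 6, 14901349 to 15441977), followed the same order. It ran from 1.71 to 5.26 CPM with a median of 2.80 in Trh-high libraries, against 5.79, 6.70 and 9.22 CPM in Trh-low libraries, and C had 5.91 to 8.20 CPM (log2 difference −1.31 ± 0.30, adjusted p = 0.901). Mdfic, which encodes a protein with a MyoD-family inhibitor domain and is a neighbour of Foxp2 (chromosome 6, 15720566 to 15802169), had a log2 difference of −1.05 ± 0.25 (adjusted p = 0.901), but its classes overlapped across groups, with 2.28 to 6.05 CPM in Trh-high and 4.51 to 9.79 CPM in Trh-low libraries.

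Ltc4s, the leukotriene C4 synthase gene, ran from 2.28 to 3.89 CPM in Trh-high libraries and had 5.58, 7.37 and 8.72 CPM in Trh-low libraries (log2 difference −1.28 ± 0.24, adjusted p = 0.618). Its C mice had 1.85, 2.89 and 5.09 CPM, of which 1 lay below the Trh-high range, 1 within it and 1 between the classes. Myo1d, an unconventional myosin, ran from 6.53 to 10.7 CPM in Trh-high and from 12.4 to 18.2 CPM in Trh-low libraries (−0.80 ± 0.19, adjusted p = 0.901). H2-D1, a class I histocompatibility gene, ran from 18.5 to 23.2 CPM in Trh-high and from 22.3 to 40.0 CPM in Trh-low libraries (−0.54 ± 0.13, adjusted p = 0.901).

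The 2 globin genes stand for red blood cell RNA. Hba-a1 had 0.419 to 1.40 CPM in Trh-high and 1.93 to 5.78 CPM in Trh-low libraries (−1.98 ± 0.38, adjusted p = 0.618), and Hbb-b1 had 1.26 to 5.41 CPM in Trh-high and 3.97 to 7.94 CPM in Trh-low libraries (−1.44 ± 0.36, adjusted p = 0.901). Both have near-identical copies, and the copy Hba-a2 is listed at 0 in every library, so how the counting shared their reads between copies is not known.

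**Figure D3:**
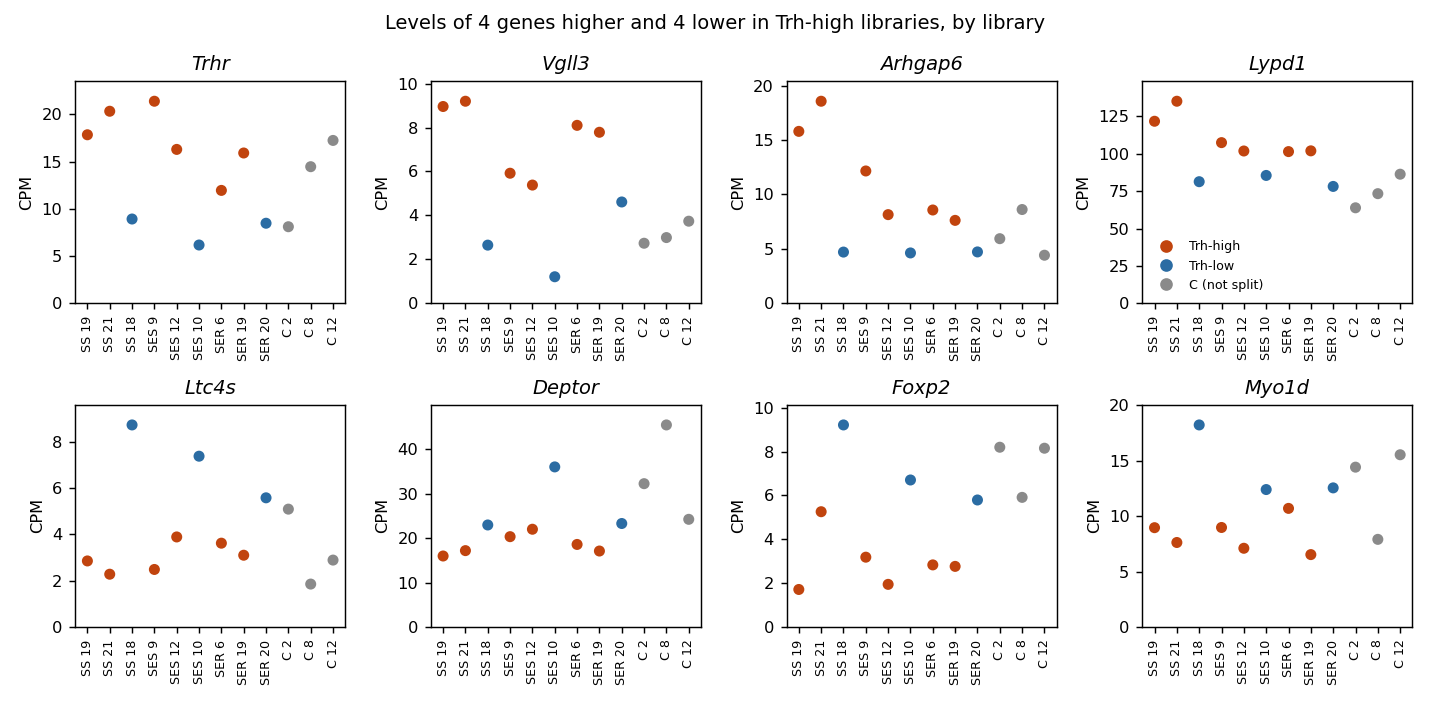
CPM of 8 genes in each of the 12 libraries, ordered by group with the mouse number, each axis from 0. Trhr, Vgll3, Arhgap6 and Lypd1 stand higher and Ltc4s, Deptor, Foxp2 and Myo1d lower in both Trh-high libraries of each stress-exposed group than in its Trh-low library; the C libraries match neither class throughout.

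The unstressed mice had Trh as low as the Trh-low libraries, which allows the 16 genes to be set beside libraries that did not choose them. The C mean lay nearer the Trh-low mean for 5 of the 8 higher genes and 6 of the 8 lower ones. The positions of C were not counted over all genes tested, so whether the counts in this paragraph are unusual is not known. All 3 C mice were below the lowest Trh-high library for Vgll3, Lypd1 and Cybrd1, and above the highest one for Deptor, Foxp2 and H2-D1. For the other 10 genes at least 1 C mouse lay in the range of the Trh-high libraries or beyond it. The C mice also differ from all 9 others in having had no restraint, so these positions were not tested.

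The levels of choroid plexus RNA and of Malat1 moved with the classes in SS, and their part in these differences was not tested beyond fits with each as a covariate. With the summed level of choroid plexus and ependymal markers in the fit, the log2 difference was 1.11 for Trhr, 1.31 for Vgll3, 0.94 for Arhgap6, −0.55 for Deptor and −1.23 for Foxp2, and none passed. With Malat1 in the fit it was 1.26 for Trhr, 1.46 for Vgll3, 1.04 for Arhgap6, −0.62 for Deptor and −1.24 for Foxp2. Larger shifts came with Malat1 in Hba-a1 (−1.22), Hbb-b1 (−0.72), Mdfic (−0.64) and Myo1d (−0.50), and with the choroid plexus level in Mdfic (−0.65). Without SS altogether, Trhr had a difference of 1.17, Vgll3 of 1.39 and Foxp2 of −1.22.

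In the list of 11 tested genes for the hormone's production, reception and breakdown, which includes Trhr, none was called, 3 were positive (Trhr, Pcsk1 and Pam) and 8 negative. The list median was −0.11 log2 units, beside −0.00 over all genes, of which 7308 were positive and 7382 negative. The convertase genes Pcsk1 and Pcsk2 had log2 differences of 0.28 ± 0.20 and −0.13 ± 0.08, Cpe (carboxypeptidase E) of −0.00 ± 0.09, Qpct (glutaminyl cyclase) of −0.13 ± 0.15 and Pam of 0.14 ± 0.11 (SE, adjusted p from 0.901 to 1.00). The second receptor gene, Trhr2, was under 1 CPM in all 9 libraries and was not tested. Trhde, the membrane enzyme that degrades the hormone outside the cell, had 18.1 and 15.3 CPM in Trh-high SS mice against 39.8 CPM in the Trh-low one, 22.1 and 28.0 CPM against 33.2 CPM in SES, and 31.2 and 28.7 CPM against 27.4 CPM in SER. It was thus below the Trh-low mouse in SS and SES and above it in SER, with a log2 difference of −0.57 ± 0.22 over the 9 libraries (adjusted p = 0.901), and its difference varied between groups (interaction adjusted p = 0.0227).

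Of 14 thyroid hormone genes 7 were positive and 7 negative, with a median of −0.00. Dio3, whose deiodinase inactivates thyroid hormone and which is usually low in adult brain, had the smallest p of the list. It had 13.3 and 13.4 CPM in Trh-high SS mice against 2.55 CPM in the Trh-low one and 9.80 and 7.77 CPM against 2.15 CPM in SES, but 7.0 and 10.4 CPM against 8.37 CPM in SER, so the classes overlapped in SER. The log2 difference was 1.31 ± 0.37 (adjusted p = 0.901) and differed between groups (interaction adjusted p = 0.0200). In C it had 4.42 to 6.48 CPM. The receptors Thra (0.04 ± 0.10) and Thrb (0.25 ± 0.12) had adjusted p of 0.963 and 0.901. Klf9, a factor induced by thyroid hormone and by glucocorticoids, was lower in Trh-high libraries in all 3 groups (−0.28 ± 0.10, adjusted p = 0.901).

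Markers of the hypothalamus, where Trh is best known, were read in the same libraries. Of 17 such genes 7 were tested, 6 of them positive, with a median of 0.62 log2 units (0.95 in SS, 0.93 in SES and −0.01 in SER) and no call. The 4 with an unadjusted p under 0.05, against 2.53% of all genes in that direction, were Baiap3, a regulator of dense-core vesicle release (0.89 ± 0.23), the orphan receptor gene Gpr101 (1.19 ± 0.34), the imprinted gene Magel2 (0.97 ± 0.30) and Hap1, the gene of huntingtin-associated protein (0.62 ± 0.20), each with an adjusted p of 0.901. Gpr101 had 15.6 to 28.6 CPM in Trh-high and 4.43 to 19.3 CPM in Trh-low libraries. By contrast, 9 members were under 1 CPM in all 9 libraries, among them the orexin gene Hcrt (0 to 0.0837 CPM in Trh-high and 0 to 0.490 CPM in Trh-low), Pmch, the melanin-concentrating hormone gene (0.0637 to 0.551 CPM in Trh-high and 0 to 0.0980 CPM in Trh-low), and Oxt, the oxytocin gene (0 to 0.701 CPM in Trh-high and 0 to 0.134 CPM in Trh-low). The developmental factors Sim1 and Otp, needed for the paraventricular nucleus in which the Trh neurons of the pituitary axis lie, were at 0 in all 3 Trh-low libraries and at most 0.163 CPM in Trh-high ones. The summed level of the list was 208.7 to 479 CPM in Trh-high libraries and 173.8 to 261 CPM in Trh-low libraries.

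Of 16 interneuron genes tested, 15 were positive, beside 7308 of 14690 over all genes, with a median of 0.31 (0.42 in SS, 0.32 in SES and 0.03 in SER). At an unadjusted p under 0.05, 6 were higher, against 2.53% of all genes, and none was called. Reln, the extracellular protein of Cajal-Retzius cells and interneurons, had 66.9 and 56.5 CPM in Trh-high SS mice against 28.8 CPM in the Trh-low one, 84.6 and 59.1 CPM against 35.8 CPM in SES, but 53.2 and 55.7 CPM against 53.5 CPM in SER (log2 difference 0.66 ± 0.19, adjusted p = 0.901). Sst, the somatostatin gene, had 180.3 to 267 CPM in Trh-high and 141 to 193 CPM in Trh-low libraries (0.40 ± 0.12). The parvalbumin gene Pvalb was the negative member (−0.08 ± 0.11). Among 22 other neuropeptide and granin genes tested, 17 were positive with a median of 0.14. That list shares Sst, Npy and Vip with the interneuron list, and members with other lists, such as Penk with the striatal one. Penk (proenkephalin) stood at 0.69 ± 0.22 and Crh (corticotropin-releasing hormone) at −0.25 ± 0.26, each with an adjusted p of 0.901 or 0.904. In these lists the SER medians were close to 0.

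Principal cell markers of the hippocampus had 0 calls in each list. The median was 0.10 for 14 granule cell genes (12 positive) and 0.18 for 14 CA1 and subiculum genes (9 positive). It was −0.19 for 13 CA2 and CA3 genes (12 negative). Within SS, SES and SER, granule cell medians were 0.36, −0.10 and −0.09. Those of CA1 and subiculum were 0.42, 0.27 and −0.11, and those of CA2 and CA3 −0.67, −0.31 and 0.16. At an unadjusted p under 0.05, 4 CA1 and subiculum genes and 1 CA2 and CA3 gene were higher, against 2.53% of all genes. In the same way 3 CA2 and CA3 genes were lower, against 2.62%. Fibcd1, a CA1 marker, was higher in both Trh-high libraries of every group (0.40 ± 0.14, adjusted p = 0.901), with 119 to 224 CPM in Trh-high and 106.5 to 177 CPM in Trh-low libraries. Pcp4, which marks CA2, was lower in every group (−0.39 ± 0.11, adjusted p = 0.901), with 109 to 160.3 CPM in Trh-high and 122 to 214 CPM in Trh-low libraries.

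**Figure D4:**
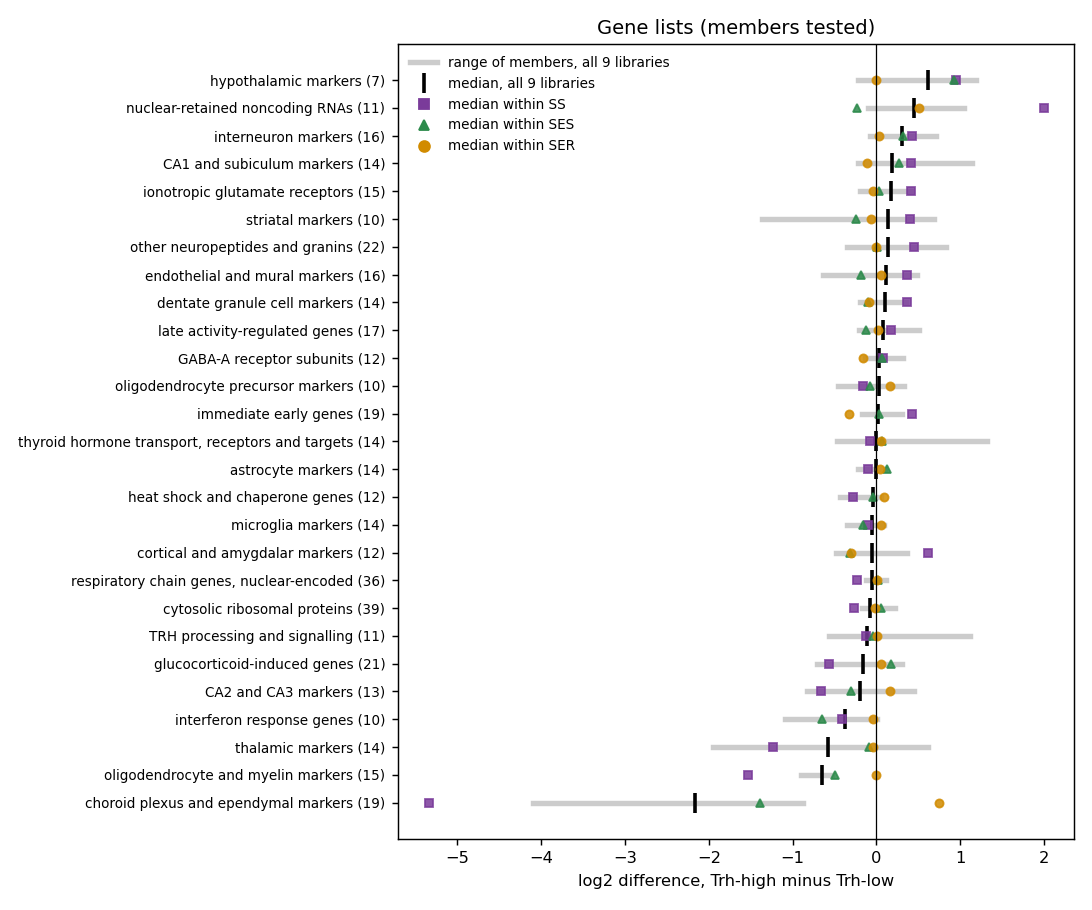
Median and range of the log2 difference, Trh-high minus Trh-low, for the tested members of 27 gene lists over the 9 stress-exposed libraries, with the medians of the differences within SS, SES and SER as coloured points. Lists are ordered by median, from 0.62 for hypothalamic markers to −2.16 for choroid plexus and ependymal markers; the SS medians are the farthest from 0 in most lists, and no list held a called gene.

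Activity and stress genes gave no call. The 19 immediate early genes had a median of 0.02 (13 positive, 6 negative), and Fosl2, a Fos-family factor, had the smallest p (0.30 ± 0.13, adjusted p = 0.901). Fos had 13.3 and 17.6 CPM in Trh-high SS mice against 3.63 CPM in the Trh-low one, 13.8 and 17.1 CPM against 13.0 CPM in SES, and 18.0 and 13.3 CPM against 35.2 CPM in SER. Its difference was positive in SS and negative in SER, and this variation passed (interaction adjusted p = 0.00167). The growth factor gene Bdnf (−0.07 ± 0.09) and Nptx2, the neuronal pentraxin gene (0.15 ± 0.17), had adjusted p of 0.924 and 0.913. Of 21 genes induced by glucocorticoids 15 were negative with a median of −0.15, which was −0.57 in SS but 0.17 in SES and 0.05 in SER. The kinase gene Sgk1 stood at −0.54 ± 0.17 (adjusted p = 0.901), or −0.20 without SS mouse 18, which leaves SS with no Trh-low library. Fkbp5, a co-chaperone of the glucocorticoid receptor, stood at −0.15 ± 0.18 (adjusted p = 0.912). The receptor gene Nr3c1 stood at −0.06 ± 0.11 (adjusted p = 0.954).

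The lists with the lowest medians were those of neighbouring tissue and of myelin. All 19 choroid plexus and ependymal markers were negative, beside 7382 of 14690 over all genes, with a median of −2.16 over the 9 libraries. At an unadjusted p under 0.05, 14 were lower, against 2.62% of all genes, and none was called. Their summed level was 106 and 111 CPM in Trh-high SS mice against 6605 CPM in the Trh-low one, 1371 and 3037 CPM against 6253 CPM in SES, and 244 and 1455 CPM against 241 CPM in SER. The medians within groups were −5.34 in SS, −1.38 in SES and 0.75 in SER, so the sign in SER was the opposite one. The C mice had 4779, 144 and 222 CPM, with Trh low in all 3. Whether the choroid plexus level and the Trh level were linked was not tested.

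All 15 myelin genes were negative, 12 of them at an unadjusted p under 0.05, against 2.62% of all genes, and none was called. Their median was −0.65 (−1.53 in SS, −0.50 in SES and −0.00 in SER). Mbp, the myelin basic protein gene, had 2013 to 4687 CPM in Trh-high and 3488 to 6143 CPM in Trh-low libraries (−0.76 ± 0.27, adjusted p = 0.901). Thalamic markers had 12 of 14 members negative and a median of −0.58, with −1.23 in SS, −0.09 in SES and −0.04 in SER. Of the 14, 7 were lower at an unadjusted p under 0.05, against 2.62% of all genes. In the other direction 1 was higher, against 2.53%, and none was called. The higher one was Calb2 (0.62 ± 0.21), which is also in the interneuron list and counted there. The thalamic factor Tcf7l2 had 8.94 to 9.67 CPM in Trh-high libraries and 7.40 to 37.0 CPM in Trh-low ones, SS mouse 18 being the highest of all. Nuclear-retained noncoding RNAs had 10 of 11 members positive, a median of 0.44 (2.00 in SS, −0.24 in SES and 0.51 in SER) and summed levels of 2965 to 12680 CPM in Trh-high and 1435 to 4205 CPM in Trh-low libraries. The part of these co-moving marker levels in the other differences was not tested beyond the covariate values given for the named genes.

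**Figure D5:**
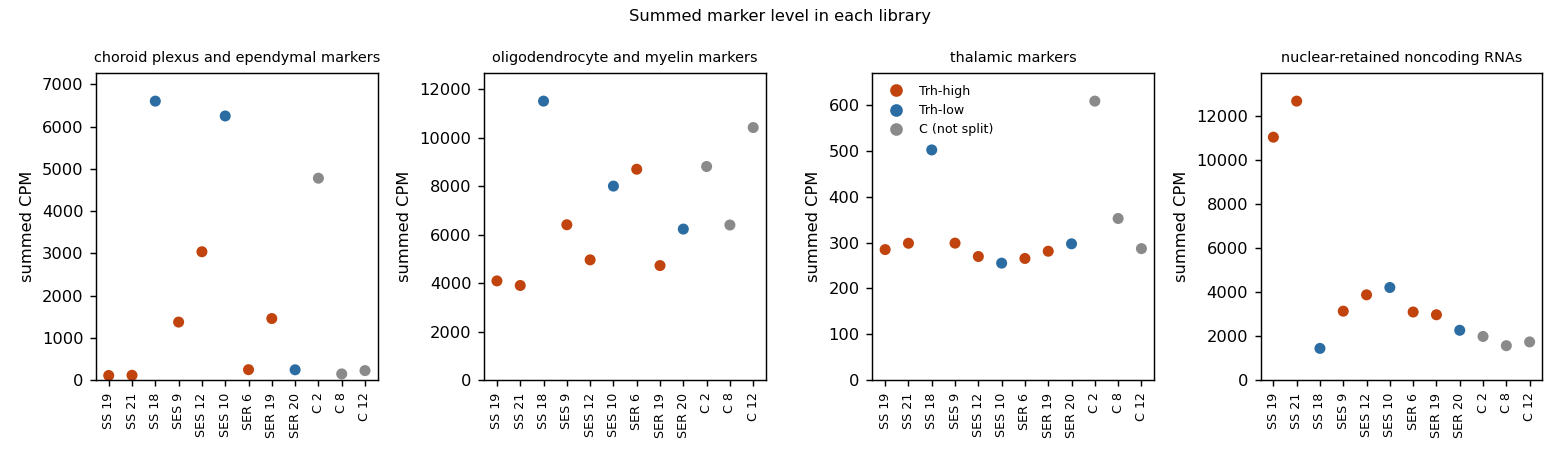
Summed CPM of 4 marker lists in each of the 12 libraries, ordered by group with the mouse number, each axis from 0. The Trh-low SS mouse 18 has the highest choroid plexus and myelin sums, 6605 and 11510 CPM, while the Trh-high SS mice 19 and 21 have the highest noncoding RNA sums, 11040 and 12680 CPM.

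The medians of the other lists lay between −0.38 and 0.17. The median was −0.01 for 14 astrocyte genes, −0.05 for 14 microglia genes, 0.03 for 10 oligodendrocyte precursor genes and 0.12 for 16 endothelial and mural genes. It was −0.06 for 36 respiratory chain genes, −0.07 for 39 ribosomal protein genes, −0.04 for 12 chaperone genes, 0.17 for 15 ionotropic glutamate receptor genes, 0.03 for 12 GABA-A receptor genes, 0.07 for 17 late activity-regulated genes, −0.05 for 12 cortical and amygdalar genes and 0.14 for 10 striatal genes. Interferon response genes stood at −0.38 with 9 of 10 negative, Bst2 (tetherin) lowest at −1.10 ± 0.37 (adjusted p = 0.901), with 1.30 to 3.18 CPM in Trh-high and 2.04 to 6.64 CPM in Trh-low libraries. Its difference was −2.02 in SS, −1.22 in SES and 0.42 in SER. Over the libraries without SS mouse 18, which leaves SS with no Trh-low library, it was −0.58.

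The difference between classes was not alike in the 3 groups. Each group has 1 Trh-low library, so a difference between groups cannot be told apart from a trait of that single mouse. An edgeR test of the interaction of class with group, which has 3 residual degrees of freedom, called 602 genes (2780 at an unadjusted p under 0.05). Of these, 601 were also in the test with group as a block. For 551 of the 601 (91.7%) the largest absolute difference was in SS, for 40 (6.66%) in SES and for 10 (1.66%) in SER. Over all genes tested the median absolute difference was also largest in SS, at 0.286, beside 0.152 in SES and 0.146 in SER. The share of all genes with their largest difference in SS was not counted, and the 601 were chosen by these same differences. Without SS the number of genes whose Trh-high minus Trh-low difference varies between groups was 0 (871 at an unadjusted p under 0.05), so the calls rest on SS, where the Trh-low library is mouse 18. The 16 genes with the smallest p had interaction adjusted p from 0.167 (Mdfic) to 0.913 (Cybrd1). They were chosen for a small p over the 3 groups together, so these values do not show that their differences were equal.

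The pattern of Trh over the 9 libraries was most nearly followed by Itpkc, the gene of an inositol trisphosphate kinase. Its Pearson correlation with Trh was 0.96, computed on log2 CPM after subtracting each group's mean among genes averaging 5 CPM or more. The next were Lypd1, Taf1a, C030039L03Rik, Cybrd1, 2610507I01Rik, Radil (a Rap effector), Entpd6 (a nucleotide phosphohydrolase), Vgll3 and Npepps (puromycin-sensitive aminopeptidase), down to 0.92. The 5 with the most negative values were Osbpl1a (an oxysterol-binding protein gene, −0.96), Cmpk2 (a nucleotide kinase gene), Gemin8 (of the survival motor neuron complex), Rhbdd1 (a rhomboid protease gene) and Ppp5c (protein phosphatase 5, −0.94). The 9 points share their group means and library totals with Trh, and these values are a description. Itpkc itself had 9.10 to 12.0 CPM in Trh-high and 6.91 to 7.72 CPM in Trh-low libraries, and C mice had 6.79 to 9.83 CPM. Npepps, at the end of the list, had 144 to 157 CPM in Trh-high and 121 to 136 CPM in Trh-low libraries. Its high correlation thus went with a small difference in level (log2 difference 0.19 ± 0.07, adjusted p = 0.901).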

How the data were processed

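Whole-number estimated counts per RefSeq transcript were deposited by the authors, 1 table per mouse, without normalization (33299 transcripts, 23183 symbols). TopHat and mm10 are named per the submitters' processing notes, and the kit keeps strand per the labels' protocols. How reads were counted, and with which strand setting and annotation, is not given in the sources used here. Values of overlapping genes and of near-identical copies are therefore uncertain. Members, gene lists and tests were chosen with earlier results of these data known.

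Counts were summed per symbol, filtered with filterByExpr (minimum count 10), scaled with TMM factors (0.972 to 1.038) and tested with glmQLFTest of edgeR 4.0.16 (R 4.3.3) on the 9 stress-exposed libraries, with group as a block and 5 residual degrees of freedom. Benjamini-Hochberg adjustment ran over 14691 genes, with calls at 0.05, and Trh was left out of the counts of calls. The biological coefficient of variation was 15.4%. The script was tested on simulated data. CPM are counts over library totals. The named genes are, first, the 8 with the smallest p in each direction (none being called, and without predicted genes). Also named are the member of each of 27 lists with the smallest p and a set always reported (such as Trhr, Trhde, Fos and Ttr). The last are the 10 genes most and 5 least like Trh. Other genes in the text were chosen after their values were seen.

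P-values measure only the spread between these mice. A floor of 3 counts lay at 0.191 to 0.322 CPM, and intervals cover counting error only. Alternatives were other scalings and filters, DESeq2 1.42.0, limma-voom (limma 3.58.1), transcripts as deposited, no group term, all 12 libraries, Trh as a number, 2 covariates, and leaving out each library or group. For the interaction test the last of these was added after seeing the data.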

Additional observations from a re-analysis of the deposited data

Results flagged for a closer look

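For 9 named genes the Trh-high minus Trh-low difference varied between the groups by edgeR's interaction test. The adjusted p was 0.00141 for Kl (klotho, made in choroid plexus), 0.00554 for Ttr, 0.00166 for Malat1, 0.00167 for Fos, 0.0107 for Pltp (a phospholipid transfer protein), 0.0200 for Dio3, 0.0227 for Trhde, 0.0289 for Fkbp5 and 0.0320 for Sgk1. Kl had log2 differences of −3.12 in SS, −1.38 in SES and 0.46 in SER, Ttr of −9.23, −1.72 and 1.65, and Pltp of −1.25, −0.94 and 0.47. Fos had 1.93, 0.23 and −1.18, and Dio3 2.22, 1.95 and 0.02, in the same order of groups. For Malat1 (3.13 in SS, 0.07 in SES and 0.54 in SER), Fkbp5 (−0.81, 0.28 and 0.09) and Sgk1 (−1.16, −0.28 and −0.14) the difference in SS was the farthest from 0. Each group has 1 Trh-low library, so these differences compare single mice.

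Among the 6 Trh-high libraries, SES mouse 9 stood far above the others in Hbb-b1, with 5.41 CPM where the next highest had 2.09. Single libraries were looked for in 68 genes, and chance alone puts a library this far out in about 1 in 20 groups.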

How the results depend on the processing

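The counts of genes higher in Trh-high libraries and genes lower in Trh-high libraries were 0 with other scalings, a stricter filter, limma-voom, transcripts as deposited, no group term, all 12 libraries, Trh as a number, each covariate, and without SS or SES. Without a filter 3 were higher (Arhgap6, Trhr and Vgll3). DESeq2 called 7 higher and 4 lower, of which 6 and 2 are among the 16 genes named first. Without SER 3 were higher (Dcn, Dio3 and Gpr101, named after their values were seen). Leaving out 1 library gave 0 to 8 higher and 0 to 5 lower, the largest both without SER mouse 20, the Trh-low one. All 16 genes kept their sign in 22 of 22 alternatives, but these reuse libraries that chose the genes. Bdnf and Nptx2, with small differences, also kept their sign in 22, while Fos did in 14 and Cpe in 15. Sizes moved among the named genes. H2-D1 was −0.35 without SES mouse 10 (−0.54 with it), and without SS mouse 18 Mdfic was −0.64 (−1.05 with it), Hbb-b1 −0.94 (−1.44), Penk 0.41 (0.69), Trhde −0.15 (−0.57), Kl −0.59 (−1.53) and Malat1 0.34 (1.05). Without SER mouse 20 Dio3 was 2.16 (1.31 with it) and Reln 1.01 (0.66). Each mouse left out here is the only Trh-low one of its group, so its group's whole contrast goes with it. Such a fit cannot tell that mouse apart from the Trh-high mice of its group. The number of genes whose Trh-high minus Trh-low difference varies between groups was 604 with DESeq2-type factors, 1615 without a filter, 0 without SS, 543 without SES and 1090 without SER. It was 247 to 1193 when 1 Trh-high library was left out: 247 without SS mouse 21, 325 without SS mouse 19, 1083 without SER mouse 6 and 1193 without SER mouse 19. The cause of these shifts was not tested. No paired analysis was run, because no label pairs the mice of different groups. Any 2 stress-exposed groups share at most 1 mouse number, which the labels do not describe as a pair. Trh-low libraries hold 6 to 13 Trh counts, which limits the ratios given for Trh.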
